A study of Mus musculus with 6 samples.

Results

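The genes described here were the 32 genes of the tricarboxylic acid (TCA) cycle and of the pyruvate dehydrogenase (PDH) complex: 17 enzyme subunits of the cycle in the mitochondrial matrix, 3 cytosolic enzymes that carry out the same reactions, 4 subunits of the PDH complex, 3 PDH kinases, 3 PDH phosphatase subunits and 2 carriers of the inner mitochondrial membrane. They were taken by symbol from a fixed list of these enzymes, subunits, regulators and carriers, with no cut on measured values, and made up 32 of the 24421 gene symbols counted. All 32 were found and all 32 passed the filter on low counts.

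The PDH complex turns pyruvate, the end product of glycolysis, into acetyl-CoA, and its kinases switch it off by phosphorylation while its phosphatases switch it on again. The TCA cycle joins acetyl-CoA to oxaloacetate as citrate, oxidises it step by step and hands the electrons to the respiratory chain. In fat cells, part of the citrate leaves the mitochondrion and is split for fatty acid synthesis, and malate, isocitrate and succinate move between matrix and cytosol, so the cycle serves both respiration and lipogenesis.

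RNA was sequenced from 3T3-L1 adipocytes, an established mouse line of fibroblast-like cells that turn into fat cells in culture. The labels give the strain as C57BL/6, which the methods name for the study's mice and not for this line. All cells had been differentiated with insulin (870 nM), TZD (5 µM), Dex (1 µM) and IBMX (500 µM), the last 2 left out from day 3, and were infected on day 7 with 100 pfu per cell of an adenovirus that expressed either LacZ (AdLacZ, control) or a codon-optimised murine Lmo3 (AdLmo3). RNA was taken 3 days later from 3 separate infections per virus, giving 3 libraries per group. Cells of 1 line were used, no uninfected cells were compared, and the design asked what Lmo3 overexpression changes in mature adipocytes.

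The libraries held 28035639 to 38332335 gene counts. Lmo3 itself was listed at 0 counts in all 6 libraries, so the labels could not be checked with the overexpressed gene; the codon-optimised sequence differs from the mouse gene the reads were mapped to. Along the 1st principal component (35.7% of the variance) the AdLacZ and AdLmo3 libraries lay apart, and along the 2nd (25.9%) each group was spread out. All 12 adipocyte markers were well expressed, at 207 CPM or more (a gene's reads relative to all gene counts of its library, TMM-normalized), whereas the macrophage markers Ptprc, Adgre1 and Itgam were at or near 0. The macrophage markers Cd68 and Csf1r were low, at 1.48 to 4.17 CPM and 0.41 to 0.81 CPM. The 10 preadipocyte and fibroblast markers ranged from 0.154 CPM (Cd34) to 14422 CPM (Col3a1), so transcripts of that kind were present as well. Over all 12766 tested genes, 346 were higher and 201 lower in AdLmo3 cells at an adjusted p under 0.05 (4.28% in all), and with scaling by library totals alone this split turned to 266 higher and 501 lower.

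Slc25a10, Pdk2, Aco1 and Fh1 were higher in AdLmo3 than in AdLacZ adipocytes, and no gene of the cycle or the PDH complex was lower at the same threshold. These 4 genes were 12.5% of the 32, against 2.71% of all tested genes called higher; with library totals alone 3 remained, without Fh1, against 2.08%. Most of the others lay within 0.20 of 0 on the log2 scale: the median log2 fold change of the 32 was 0.10, with values from -0.23 (Pdk3) to 0.72 (Slc25a10), beside a median of 0.00 over all tested genes. The sign was positive for 25 and negative for 7, where 50.4% of all tested genes were positive; with library totals alone 11 of the 32 were negative and the median was 0.03. An unadjusted p under 0.05 was reached by 11 of the 32, all of them higher, against 20.6% of all tested genes in either direction. In 16 of the 32 (50.0%) every AdLmo3 library was above every AdLacZ library, compared with 13.3% of all tested genes. The reverse was seen for 0 of the 32 and for 13.2% of all tested genes. These shares were counted on TMM-normalized CPM, with TMM factors of 1.02 to 1.04 in AdLacZ and 0.964 to 0.985 in AdLmo3 libraries. Such factors raise AdLmo3 against AdLacZ levels relative to library totals alone, with which the shares were not counted. The standard errors of the 32 log2 fold changes had a median of 0.07, and the largest were those of Pdk1 (0.32), Pdk3 (0.12), Pdp1 (0.10) and Idh1 (0.10). The count of 4 was 1, Slc25a10, without AdLacZ replicate 1, AdLacZ replicate 3 or AdLmo3 replicate 2, and 2, Pdk2 and Slc25a10, without AdLacZ replicate 2 or AdLmo3 replicate 3.

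**Figure D1:**
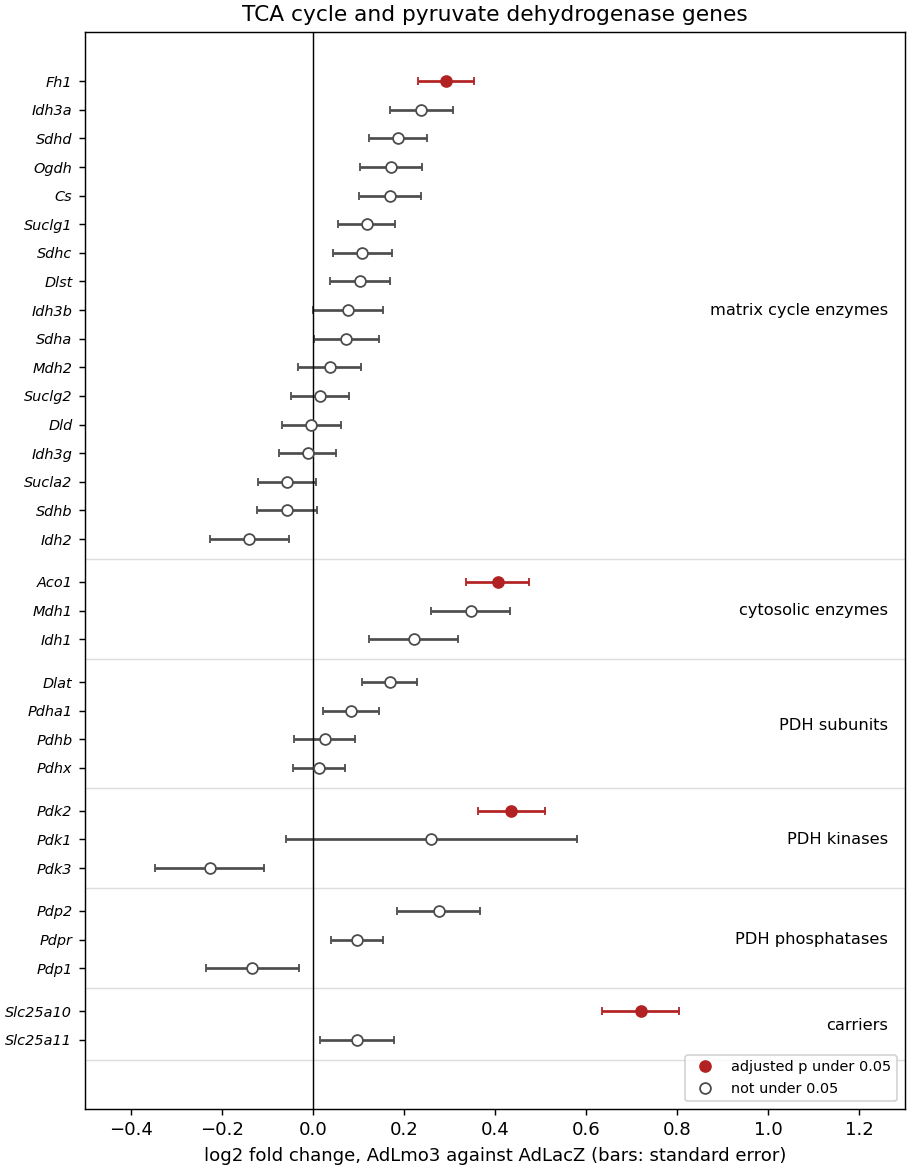
Log2 fold change of AdLmo3 against AdLacZ (x axis) for each of the 32 genes, grouped by role; points are estimates from 3 libraries per group, bars are standard errors, and filled points passed an adjusted p of 0.05. The 4 filled points, Fh1, Aco1, Pdk2 and Slc25a10, lie right of 0, and the matrix enzymes cluster between -0.14 and 0.29.

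The summed level of the 32 genes was 9596, 9986 and 9888 CPM in AdLacZ replicates 1 to 3 and 10910, 11276 and 10919 CPM in AdLmo3 replicates 1 to 3, so the groups did not overlap. Adipocyte marker transcripts moved in the same direction: all 12 markers had positive log2 fold changes, beside 50.4% of all tested genes. Of the 12, 9 were called higher (among them Adipoq, log2 fold change 1.05, and Pparg, 0.48), beside 2.71% of all tested genes. Lpl (0.23), Dgat2 (0.22) and Cd36 (0.10) were not called, and their groups overlapped. The summed level of the 12 ran from 23803 to 27047 CPM in AdLacZ and from 32388 to 39111 CPM in AdLmo3 libraries. None of the 10 preadipocyte and fibroblast markers was called, and their sums overlapped, at 17082 to 21624 CPM and 16825 to 25083 CPM. The macrophage markers summed to 2.73 to 4.61 CPM in AdLacZ and 2.11 to 3.51 CPM in AdLmo3 libraries. The part of the adipocyte share in the results below was not tested, and in bulk RNA fewer cells of a type and less RNA per cell cannot be told apart.

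The carriers come first because they held the largest change. Slc25a10, which encodes the mitochondrial dicarboxylate carrier that exchanges malate or succinate for phosphate, stood at 421, 430 and 392 CPM in AdLacZ replicates 1 to 3 and at 614, 724 and 709 CPM in AdLmo3 replicates 1 to 3. All 3 AdLmo3 libraries lay well above the 3 controls, with replicate 1 the lowest of them. The mean rose from 414 ± 20.2 to 682 ± 59.4 CPM (SD, n = 3 each), which was 1.65-fold (log2 fold change 0.72, SE 0.09, adjusted p = 0.00496). This was the lowest adjusted p among the 32 genes, and Slc25a10 was called with every library left out in turn and under every other setting tried, with log2 fold changes between 0.65 and 0.80. Without AdLacZ replicate 3 its adjusted p in edgeR's quasi-likelihood test was only just under the threshold (0.0492), and without AdLmo3 replicate 2 it was 0.0331. Slc25a11, the carrier that exchanges 2-oxoglutarate for malate, stood at 161, 171 and 168 CPM in AdLacZ and at 176, 196 and 163 CPM in AdLmo3 replicates 1 to 3. Its groups overlapped through AdLmo3 replicate 3 and it did not pass (log2 fold change 0.10, SE 0.08, adjusted p = 0.559). The count ratio of Slc25a10 to Slc25a11 was larger in each AdLmo3 library than in any AdLacZ library, with a difference of 0.62 ± 0.11 (SE) on the log2 scale.

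Slc25a10 lies at chr11:120491840-120499187 on the plus strand (GRCm38, GENCODE M21), and 6.60% of its exon bases are also covered by Gm11788, an antisense gene on the minus strand; 4.46% of its 75-base stretches occur in Gm11788 as well. The strand setting of the counting is not given in the sources used here, so reads from this overlap cannot be assigned with certainty. The same limit holds for Slc25a11, and so for the ratio of the 2 carriers. Rnf167, on the opposite strand, covers 8.92% of the exon bases of Slc25a11 and shares 5.14% of its 75-base stretches.

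Promoter sequences are shown for 3 of the 4 genes that rose, so that their start regions can be compared letter by letter; for Aco1 most of the window is annotated exon and none is shown. Each is the 250 bases before a RefSeq start site (GRCm38.p6), 5′ to 3′ on the strand of the gene, with capitals for the letters AGGTCA, a nuclear receptor half-site, or CCAAT, the NF-Y box, on either strand (TGACCT and ATTGG are the same letters read from the other strand). Pdk2 has 2 RefSeq starts and both are given.
Slc25a10 (chr11:120491587-120491836, plus strand): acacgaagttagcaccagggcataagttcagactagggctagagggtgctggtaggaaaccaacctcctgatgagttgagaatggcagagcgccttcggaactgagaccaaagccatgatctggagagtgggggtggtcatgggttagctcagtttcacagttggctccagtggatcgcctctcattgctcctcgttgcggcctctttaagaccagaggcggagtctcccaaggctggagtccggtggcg
Pdk2, upstream start (chr11:95041372-95041621, minus strand): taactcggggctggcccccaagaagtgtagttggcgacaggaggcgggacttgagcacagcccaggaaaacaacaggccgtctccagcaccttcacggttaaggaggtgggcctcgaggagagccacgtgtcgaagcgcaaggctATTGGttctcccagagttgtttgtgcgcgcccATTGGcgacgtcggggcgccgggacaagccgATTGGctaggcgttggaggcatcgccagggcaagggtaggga
Pdk2, downstream start (chr11:95040876-95041125, minus strand): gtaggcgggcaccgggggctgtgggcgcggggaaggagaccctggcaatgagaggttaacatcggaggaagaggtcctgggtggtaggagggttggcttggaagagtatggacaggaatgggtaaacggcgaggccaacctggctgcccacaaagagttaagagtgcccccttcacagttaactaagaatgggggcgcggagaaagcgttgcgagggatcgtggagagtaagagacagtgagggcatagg
Fh1 (chr1:175625636-175625885, minus strand): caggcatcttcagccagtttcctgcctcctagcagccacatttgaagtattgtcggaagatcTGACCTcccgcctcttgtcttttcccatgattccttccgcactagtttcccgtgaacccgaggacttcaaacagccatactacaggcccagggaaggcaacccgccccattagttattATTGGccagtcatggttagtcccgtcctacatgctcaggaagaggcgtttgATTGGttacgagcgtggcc

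The 4 stretches differ in these letters: the Fh1 stretch holds AGGTCA once and CCAAT at 2 places, the upstream Pdk2 stretch holds CCAAT at 3 places, and the other Pdk2 stretch and the Slc25a10 stretch hold neither. Over the whole RefSeq windows (250 bases before to 50 after the start, any window of the gene, both strands), 29 of the 32 genes had a sequence. AGGTCA was present in 6 of the 29 (20.7%), beside 18.1% of 27025 genes, and was found in Fh1, Idh3g, Ogdh, Sdhb, Sdhd and Sucla2. TCAAGGTCA, the extended half-site of the estrogen-related receptors, which contains AGGTCA, was present in Sdhd only (3.45%, beside 0.466% of genes). The direct repeat of AGGTCA with 1 base between, the DR1 element read by PPARs with RXR, and the palindromic core of the NRF1 motif, each searched as 1 exact string, were found in 0 of the 29 (beside 0.0481% and 1.07% of genes). CCAAT was present in 18 of the 29 (62.1%, beside 41.1% of genes), Slc25a10, Pdk2 and Fh1 among them and Aco1 not, and TATAAA in 0 of the 29 (beside 15.7%). A match of letters is a description and not a binding site.

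Among the PDH kinases, Pdk2 rose, Pdk1 varied most of all 32 genes and Pdk3 did not pass. Pdk2 encodes a kinase that phosphorylates and inactivates the PDH complex. It stood at 65.2, 76.1 and 66.8 CPM in AdLacZ replicates 1 to 3 and at 92.8, 96.8 and 92.0 CPM in AdLmo3 replicates 1 to 3. The 3 AdLmo3 libraries lay close together and above all controls. The mean was 1.35-fold higher (log2 fold change 0.44, SE 0.07, adjusted p = 0.0186). The call was lost without AdLacZ replicate 1 (adjusted p = 0.0579), without AdLacZ replicate 3 (0.104) and without AdLmo3 replicate 2 (0.0881), with log2 fold changes of 0.39, 0.41 and 0.41. Pdk2 lies at chr11:95026258-95041354 on the minus strand, and none of its 75-base stretches occurs in another gene.

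Pdk1, the kinase best known as a gene induced by hypoxia, stood at 149, 409 and 319 CPM in AdLacZ and at 352, 417 and 282 CPM in AdLmo3 replicates 1 to 3. AdLacZ replicate 1 was far below the other 5 libraries and the groups overlapped. Its log2 fold change of 0.26 (SE 0.32, adjusted p = 0.704) turned to -0.06 without that library (adjusted p = 0.904). The same library was lowest for Ldha, lactate dehydrogenase A, with 671 CPM against 1612 and 1248 in the other controls and 1448, 1711 and 1243 in AdLmo3 replicates 1 to 3. It was lowest for Pkm, pyruvate kinase, as well, with 764 CPM against 1649 and 1315 in the other controls and 1228, 1531 and 1159 in AdLmo3 replicates 1 to 3. What AdLacZ replicate 1 shares across these 3 genes was not tested. Ldha and Pkm, chosen for this comparison after their values were seen, did not pass between the groups (adjusted p = 0.583 and 0.912).

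Pdk3, a further PDH kinase, stood at 36.8, 49.8 and 49.0 CPM in AdLacZ and at 37.4, 41.7 and 36.7 CPM in AdLmo3 replicates 1 to 3. AdLacZ replicate 1 again lay apart from the other controls and among the AdLmo3 libraries, and the log2 fold change was -0.23 (SE 0.12, adjusted p = 0.334). It was -0.35 without AdLacZ replicate 1 (adjusted p = 0.0766) and -0.15 without AdLacZ replicate 2. Per kb of annotated exon, Pdk2 made up 38.1, 25.0 and 26.0% of the 3 kinases in AdLacZ and 32.9, 30.5 and 36.5% in AdLmo3 replicates 1 to 3. These shares overlapped: their means were 29.7 ± 7.28% and 33.3 ± 3.05% (SD, n = 3 each; two-sided exact permutation p = 0.5, where 0.1 is the smallest p that 3 against 3 allows). The difference of 3.59 percentage points was 7.78 without AdLacZ replicate 1, and 1.25, 1.73 and 1.98 without AdLacZ replicate 2, AdLacZ replicate 3 and AdLmo3 replicate 3. From raw counts, without length, it was 1.17 percentage points. Pdk3 made up 26.5, 20.2 and 23.5% in AdLacZ and 16.4, 16.2 and 18.0% in AdLmo3 libraries, which did not overlap. Only the Pdk2 share was planned and tested, so this separation is a description. The highest Pdk3 share, in AdLacZ replicate 1, stood beside the low Pdk1 level of that library (149 CPM), and the CPM of Pdk3 itself overlapped between the groups. Pdk4, the kinase induced by fasting and fatty acids, is not among the 32 and had a log2 fold change of -0.09 (SE 0.09, adjusted p = 0.666).

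The PDH phosphatases were the lowest of the 32 in level per kb of exon, and none passed. Pdp2, a catalytic subunit, stood at 28.0, 35.0 and 30.1 CPM in AdLacZ and at 36.3, 37.5 and 39.2 CPM in AdLmo3 replicates 1 to 3. All AdLmo3 libraries were above all controls, but the log2 fold change of 0.28 (SE 0.09) had an adjusted p of 0.134. Pdp1, the other catalytic subunit, overlapped between groups, at 24.0 to 28.2 CPM in AdLacZ and 22.6 to 27.3 CPM in AdLmo3 libraries (log2 fold change -0.13, adjusted p = 0.529). The regulatory subunit Pdpr differed little, at 61.1 ± 1.55 and 65.4 ± 2.24 CPM (SD, n = 3 each; log2 fold change 0.10, adjusted p = 0.394), although its groups did not overlap.

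**Figure D2:**
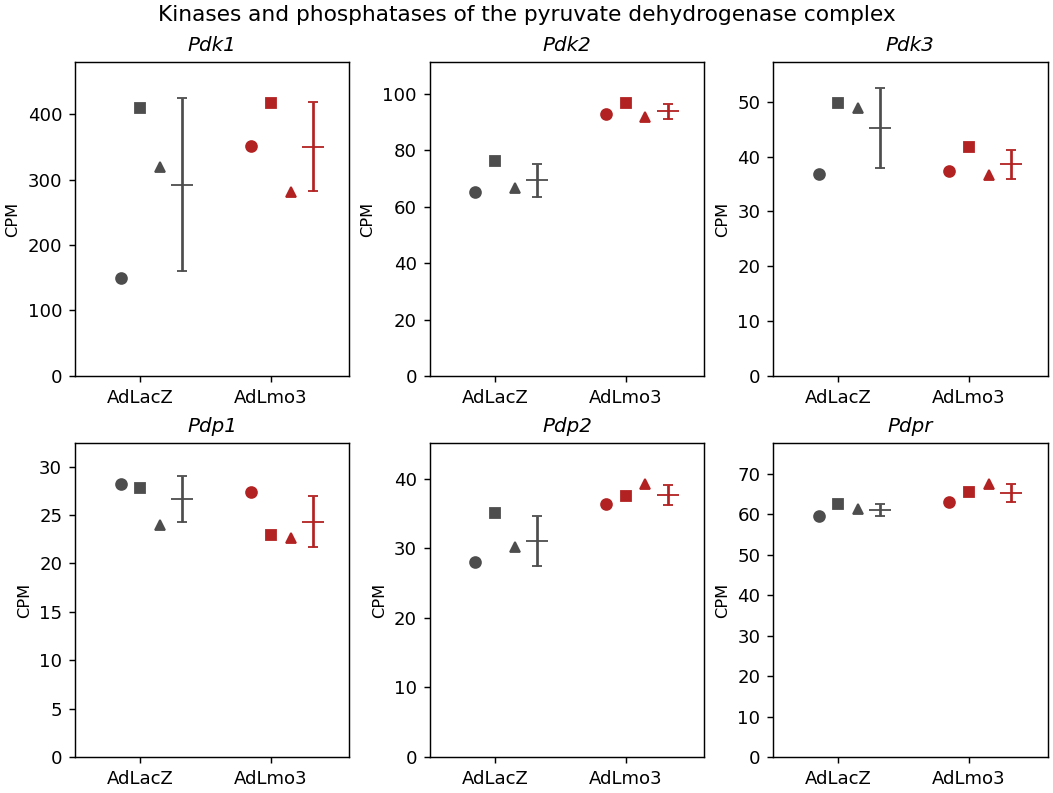
Level in CPM (y axes, from 0) of the 3 PDH kinases and 3 PDH phosphatase subunits in each library; circle, square and triangle are replicates 1, 2 and 3, and the bar is mean and SD (n = 3 per group). Pdk2 is higher in every AdLmo3 library, and AdLacZ replicate 1 is the lowest point for Pdk1, at 149 CPM.

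None of the 4 subunits of the PDH complex itself passed the test. Dlat, the acetyltransferase core (E2), stood at 233, 230 and 226 CPM in AdLacZ and at 254, 267 and 254 CPM in AdLmo3 replicates 1 to 3, groups that did not overlap, with a log2 fold change of 0.17 (SE 0.06, adjusted p = 0.167). Pdha1, the alpha subunit of the decarboxylase (E1), did not overlap between groups either, at 473 to 489 CPM and 505 to 519 CPM (log2 fold change 0.08, adjusted p = 0.505). Pdhb, the beta subunit of E1, and Pdhx, the protein that anchors E3 to the core, overlapped, with log2 fold changes of 0.03 and 0.01, which turned to -0.05 and -0.06 with library totals alone. Dld, the E3 subunit shared with the oxoglutarate dehydrogenase complex, was at 479 ± 16.7 and 478 ± 8.25 CPM (SD, n = 3 each; log2 fold change -0.00). Of the 75-base stretches of Pdha1, 10.6% are shared with the overlapping gene Map3k15, and of those of Pdhb, 6.86% with Gm6123, so these 2 values are less certain.

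Of the 17 matrix enzymes of the cycle, Fh1 alone was called (5.88%, beside 2.71% of all tested genes called higher). Log2 fold changes were positive for 12 (70.6%, beside 50.4% of all tested genes) and negative for 5, with a median of 0.08. With library totals alone Suclg2 (-0.06) and Mdh2 (-0.04) were negative too. The cycle opens with Cs, citrate synthase, which stood at 905, 938 and 924 CPM in AdLacZ and at 1009, 1077 and 1027 CPM in AdLmo3 replicates 1 to 3. Its groups did not overlap, yet the difference did not pass (log2 fold change 0.17, SE 0.07, adjusted p = 0.202).

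The NAD-dependent isocitrate dehydrogenase has a catalytic subunit, Idh3a, and the partners Idh3b and Idh3g. Idh3a stood at 357, 393 and 369 CPM in AdLacZ and at 445, 452 and 424 CPM in AdLmo3 replicates 1 to 3, without overlap (log2 fold change 0.24, SE 0.07, adjusted p = 0.1005). Idh3b and Idh3g overlapped, with log2 fold changes of 0.08 and -0.01. DESeq2's Wald test, which called 5.26% of all tested genes higher, called Idh3a as well (adjusted p = 0.0231). The count ratios of Idh3a to Idh3b and of Idh3a to Idh3g were higher in every AdLmo3 library than in any AdLacZ library, by 0.16 ± 0.03 and 0.25 ± 0.03 (SE) on the log2 scale. Idh2, the NADP-dependent enzyme of the matrix, overlapped between groups, at 228 to 264 CPM and 203 to 237 CPM, and had the lowest value of the matrix enzymes (log2 fold change -0.14, SE 0.09, adjusted p = 0.414).

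For the oxoglutarate dehydrogenase complex, Ogdh, the E1 subunit, stood at 425, 423 and 423 CPM in AdLacZ and at 505, 457 and 470 CPM in AdLmo3 replicates 1 to 3, without overlap (log2 fold change 0.17, SE 0.07, adjusted p = 0.197). Dlst, its E2 subunit, had a log2 fold change of 0.10 (adjusted p = 0.418), at 287 to 302 CPM and 305 to 329 CPM. Succinyl-CoA ligase, which makes a nucleoside triphosphate from succinyl-CoA, gave log2 fold changes of 0.12 for Suclg1, 0.02 for Suclg2 and -0.06 for Sucla2, none past the threshold. Of the 75-base stretches of Suclg2, 11.6% occur in Gm15163 too.

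Succinate dehydrogenase is complex II of the respiratory chain as well as a cycle enzyme. Sdhd, a membrane anchor, stood at 193, 182 and 183 CPM in AdLacZ and at 216, 215 and 204 CPM in AdLmo3 replicates 1 to 3, without overlap (log2 fold change 0.19, SE 0.06, adjusted p = 0.147). The other anchor, Sdhc, did not overlap either, at 221 to 226 CPM and 231 to 254 CPM (log2 fold change 0.11, adjusted p = 0.398). Sdha, the flavoprotein, and Sdhb, the iron-sulphur subunit, overlapped, with log2 fold changes of 0.07 and -0.06. The subunits of this enzyme thus had small values on both sides of 0, and none passed.

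Fh1, fumarate hydratase, which turns fumarate into malate in the matrix and, as a second pool, in the cytosol, stood at 170, 164 and 168 CPM in AdLacZ and at 210, 198 and 207 CPM in AdLmo3 replicates 1 to 3. Both groups were tight and well apart. The mean rose from 167 ± 2.79 to 205 ± 6.42 CPM (SD, n = 3 each; 22.5% higher, log2 fold change 0.29, SE 0.06, adjusted p = 0.0394). The call was lost without any 1 of the 6 libraries (adjusted p from 0.0834 without AdLmo3 replicate 1 to 0.148 without AdLacZ replicate 3) and with library totals alone (0.0822), with log2 fold changes of 0.22 to 0.32. Fh1 lies at chr1:175600374-175625635 on the minus strand. Mdh2, the matrix malate dehydrogenase that closes the cycle, overlapped between groups at 455 ± 13.0 and 467 ± 23.8 CPM (SD, n = 3 each; log2 fold change 0.04, adjusted p = 0.817).

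The cytosolic counterparts had larger log2 fold changes than the matrix enzymes in the median, 0.35 for the 3 against 0.08 for the 17, a difference given here as a description. Aco1, the cytosolic aconitase, which without its iron-sulphur cluster acts as iron regulatory protein 1, stood at 316, 313 and 343 CPM in AdLacZ and at 421, 423 and 443 CPM in AdLmo3 replicates 1 to 3. The AdLmo3 libraries all lay above the controls, and replicate 3 was the highest in each group. The mean was 1.33-fold higher (log2 fold change 0.41, SE 0.07, adjusted p = 0.0184). The adjusted p was 0.061, 0.0583 and 0.0666 without AdLacZ replicates 1, 2 and 3 and 0.0819 and 0.0539 without AdLmo3 replicates 2 and 3, with log2 fold changes of 0.38 to 0.45. Aco1 lies at chr4:40143081-40198338 on the plus strand.

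Mdh1, the cytosolic malate dehydrogenase of the malate-aspartate shuttle, stood at 713, 651 and 729 CPM in AdLacZ and at 806, 910 and 947 CPM in AdLmo3 replicates 1 to 3, without overlap. It missed the threshold (log2 fold change 0.35, SE 0.09, adjusted p = 0.0681) and passed it without AdLmo3 replicate 1 (adjusted p = 0.0466, log2 fold change 0.42), with no filter on low counts (0.0499) and in DESeq2's Wald test (0.00284). Idh1, the cytosolic NADP-dependent isocitrate dehydrogenase, stood at 545, 480 and 574 CPM in AdLacZ and at 558, 636 and 671 CPM in AdLmo3 replicates 1 to 3. AdLmo3 replicate 1 lay among the controls, and the difference did not pass (log2 fold change 0.22, SE 0.10, adjusted p = 0.249).

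**Figure D3:**
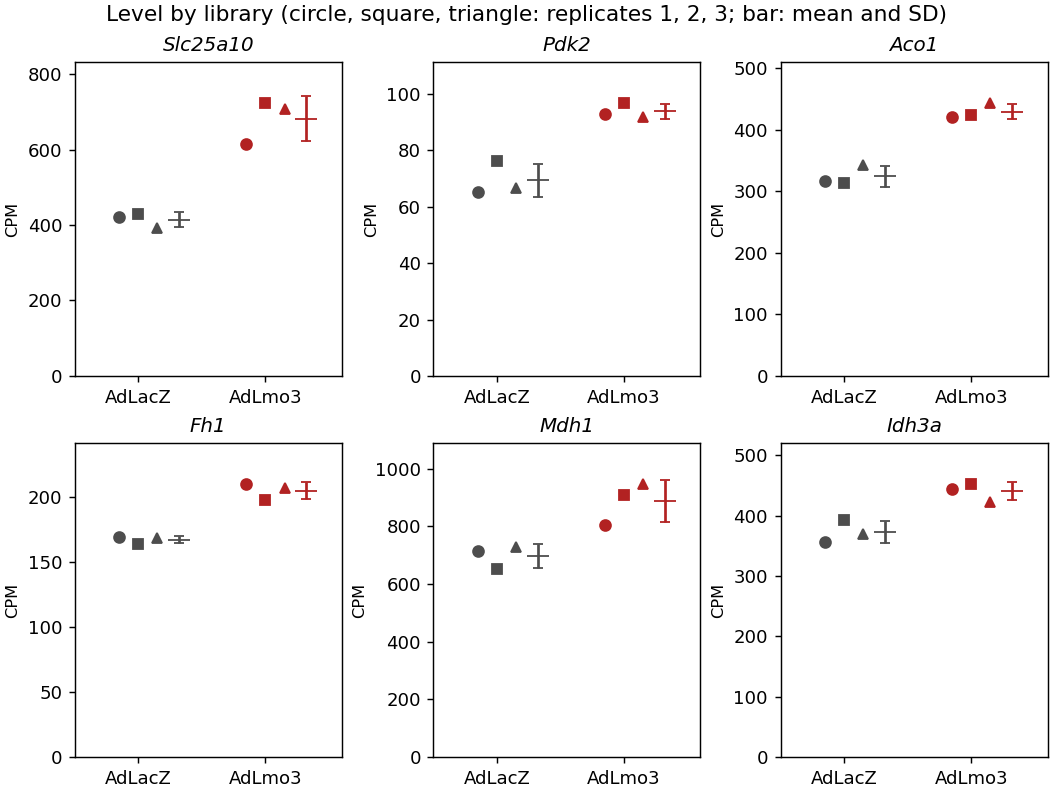
Level in CPM (y axes, from 0) of the 6 genes of the 32 with the lowest p, by library; circle, square and triangle are replicates 1, 2 and 3, and the bar is mean and SD (n = 3 per group). In all 6 panels every AdLmo3 point is above every AdLacZ point; Slc25a10, Pdk2, Aco1 and Fh1 passed the threshold and Mdh1 and Idh3a did not.

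The balance within pairs of related genes was compared as log2 count ratios, which do not depend on the scaling of a library. Of 11 pairs, 5 had a higher ratio in every AdLmo3 library than in any AdLacZ library: Slc25a10 to Slc25a11, Idh3a to Idh3b, Idh3a to Idh3g, Sdha to Sdhb (0.13 ± 0.08, SE, and 0.06 without AdLacZ replicate 1) and Dlat to Pdhx (0.15 ± 0.03). The Sucla2 to Suclg2 ratio was lower in every AdLmo3 library, by 0.07 ± 0.03 on the log2 scale. How often pairs of other genes separate like this was not computed, and Idh3a stands in more than 1 pair. These counts are therefore a description only. With 3 libraries per group, the two-sided exact permutation p of these 6 pairs was 0.1, the smallest possible, and 0.183 after Benjamini-Hochberg adjustment over the 11 pairs, so none could pass. The cytosolic to matrix ratios overlapped between groups: Idh1 to Idh2 differed by 0.36 ± 0.19 and Mdh1 to Mdh2 by 0.31 ± 0.13 (SE; exact permutation p = 0.2 for each, 0.275 adjusted), with AdLmo3 replicate 1 within the range of the controls in both. Pdk2 to Pdk1, Pdha1 to Pdhb and Ogdh to Dlst overlapped as well, and the Pdk2 to Pdk1 difference of 0.08 was 0.46 without AdLacZ replicate 1 and -0.16, -0.07 and -0.06 without AdLacZ replicate 2, AdLacZ replicate 3 and AdLmo3 replicate 3.

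**Figure D4:**
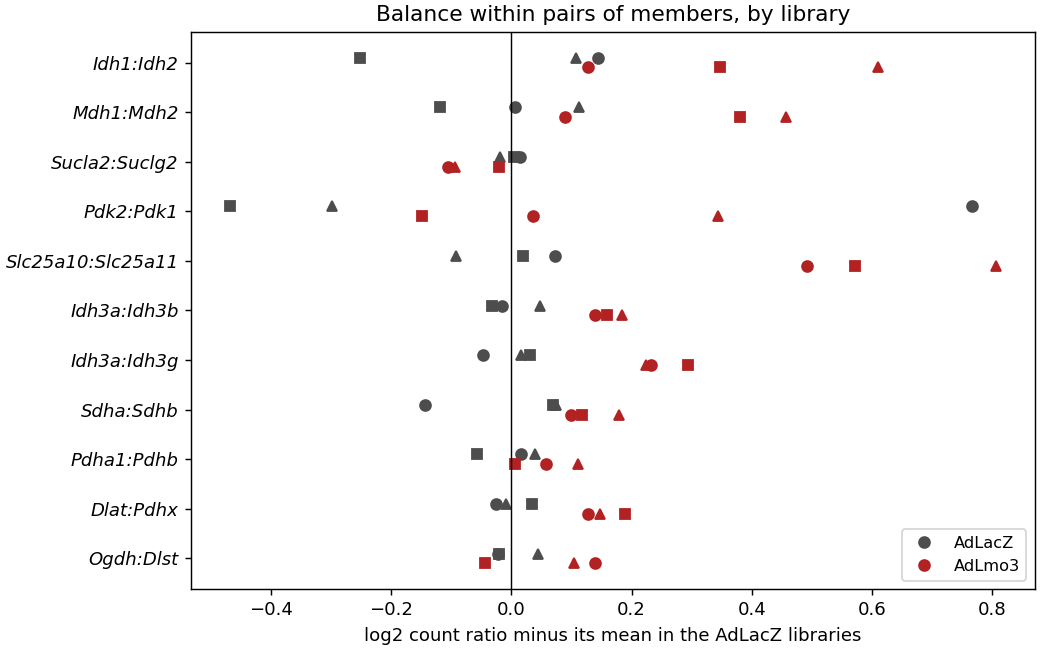
Log2 count ratio within each of 11 pairs, minus the mean of the 3 AdLacZ libraries (x axis), 1 point per library; grey is AdLacZ, red is AdLmo3, and circle, square and triangle are replicates 1, 2 and 3. Slc25a10 to Slc25a11 is shifted furthest among the pairs whose groups do not overlap, by 0.62 on average.

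Levels per length placed the cytosolic malate dehydrogenase at the top. In AdLacZ cells Mdh1 had a level of 272 CPM per kb of annotated exon, followed by Sdha (197), Idh1 (192) and Cs (160), and the lowest levels were those of Pdp2 (5.46), Pdp1 (5.91) and Pdpr (12.2). The kinases lay low as well, at 37.6 for Pdk1, 21.9 for Pdk2 and 17.6 CPM per kb for Pdk3. Slc25a10 had a level of 120 CPM per kb in AdLacZ and 198 in AdLmo3 cells. All 6 regulators of the complex lay below its 4 subunits on this scale, except that Pdk1 lay above Pdhx (26.9 CPM per kb).

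**Figure D5:**
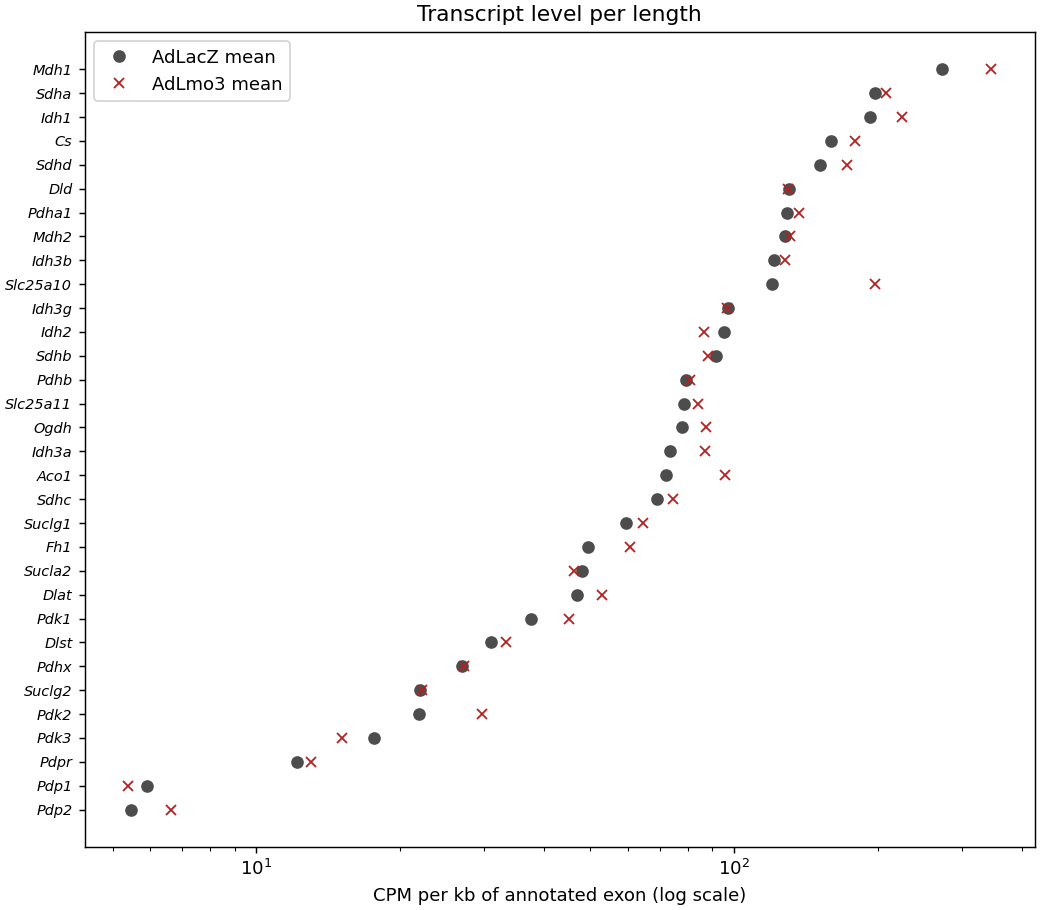
Mean level in CPM per kb of annotated exon (x axis, log scale) of each of the 32 genes, ordered by the AdLacZ mean; grey circles are AdLacZ and red crosses AdLmo3 means of 3 libraries. Mdh1 is highest at 272 and Pdp2 lowest at 5.46 in AdLacZ cells, and the widest gap between circle and cross is that of Slc25a10.

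Genes around the cycle were read from 6 lists with 42 genes in all. Lists of pyruvate and malate supply, citrate export and cleavage, and amino acid links and shuttles hold genes that feed or drain it. The rest are genes of succinate dehydrogenase assembly and lipoylation, further cycle and complex genes, and genes of mitochondrial transcription and mass. All 42 were tested; 21 had positive and 21 negative log2 fold changes, their median was 0.00, and 4 were called higher and 2 lower, beside 2.71% and 1.57% of all tested genes. The 6 calls were 3 without AdLacZ replicate 2, 1 without AdLacZ replicate 3 and 2 without AdLmo3 replicate 2. In the list of pyruvate and malate supply, 3 of 11 were called higher and 0 lower. Pck1, the cytosolic PEP carboxykinase of glyceroneogenesis, stood at 342, 272 and 257 CPM in AdLacZ and at 606, 668 and 713 CPM in AdLmo3 replicates 1 to 3 (log2 fold change 1.19, SE 0.12, adjusted p = 0.00352), with the groups far apart. Pcx, pyruvate carboxylase, which makes oxaloacetate from pyruvate, stood at 1467, 1470 and 1474 CPM and at 1993, 2071 and 2241 CPM (log2 fold change 0.52, SE 0.08, adjusted p = 0.0122); the controls were almost level and all AdLmo3 libraries higher. The call was lost without AdLacZ replicate 3 (adjusted p = 0.0733) and without AdLmo3 replicate 2 (0.0574).

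The mitochondrial pyruvate carrier is a pair of subunits. Mpc2 stood at 85.7, 73.8 and 71.0 CPM in AdLacZ and at 97.3, 102 and 99.5 CPM in AdLmo3 replicates 1 to 3, without overlap (log2 fold change 0.37, SE 0.08, adjusted p = 0.0424), and its call was lost without any 1 library except AdLacZ replicate 1 (adjusted p from 0.0589 without AdLmo3 replicate 1 to 0.17 without AdLacZ replicate 3) as well as with upper-quartile scaling (0.0543) and library totals alone (0.0769). Mpc1 did not overlap either but did not pass (log2 fold change 0.30, SE 0.07, adjusted p = 0.0667; 0.034 in DESeq2's Wald test), and 21.3% of its 75-base stretches occur in other genes. Neither gene of citrate export and cleavage passed: Acly, ATP citrate lyase, had a log2 fold change of 0.61 (SE 0.15, adjusted p = 0.0644) and passed without AdLmo3 replicate 1 (adjusted p = 0.00845), with no filter on low counts (0.0222) and in DESeq2's Wald test (0.000417), and Slc25a1, the citrate carrier, 0.37 (SE 0.11, adjusted p = 0.108).

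In the list of amino acid links and shuttles, 1 of 8 was called higher and 1 lower, beside 2.71% and 1.57% of all tested genes. Gpt, the cytosolic alanine aminotransferase, stood at 94.4, 95.2 and 91.2 CPM in AdLacZ and at 143, 137 and 127 CPM in AdLmo3 replicates 1 to 3, well apart (log2 fold change 0.54, SE 0.07, adjusted p = 0.00724); the call was lost without AdLacZ replicate 3 (adjusted p = 0.0558). Got1, the cytosolic aspartate aminotransferase that works with Mdh1 in the malate-aspartate shuttle, stood at 69.0, 80.2 and 72.4 CPM in AdLacZ and at 56.1, 46.1 and 46.4 CPM in AdLmo3 replicates 1 to 3. All AdLmo3 libraries were below all controls, and Got1 fell by 0.58 on the log2 scale (SE 0.09, adjusted p = 0.0173). This call was lost without AdLacZ replicate 2 (adjusted p = 0.0556), AdLacZ replicate 3 (0.079) or AdLmo3 replicate 2 (0.0872).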

How the data were processed

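Per the labels, total RNA was read on a NextSeq500 as 75-base single reads; bcl2fastq, STAR 2.5.0b, DESeq2 1.6.3 and the build mm10 (GRCm38) are named in the submitters' processing notes. The authors deposited 1 table per library with raw counts of reads per gene symbol, not normalized. The counting program, its strand setting and the annotation are not given in the sources used here. Reads given to no gene (7.15 to 8.94% of all counted reads, these included) or to several (0.476 to 0.543%) were left out.

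The fit was edgeR's quasi-likelihood test (edgeR 4.0.16, R 4.3.3) after filterByExpr, with TMM factors of 0.964 to 1.04 and no block, with Benjamini-Hochberg adjustment over 12766 tested genes and a threshold of 0.05; DESeq2 1.42.0 and limma 3.58.1 (voom) were alternatives, as were other scalings and filters, the replicate block and leaving out each library. Log2 fold changes are AdLmo3 minus AdLacZ. CPM are TMM-normalized. A count of 0 allows up to 3 counts, which is 0.0783 to 0.107 CPM of the raw gene counts, without TMM factors, counting error only. The p-values measure the spread between 3 libraries from separate infections per group. Member pairs and shares were compared with two-sided exact permutation tests. Scripts were tested on simulated data. Positions and exon lengths are from GENCODE M21, promoters from RefSeq GRCm38.p6; motif counts used Python 3.11.15, figures matplotlib 3.10.9.

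The 32 members, the lists and the tests were chosen with earlier results of these data known. Named were all members, list genes past the threshold, and Pdk4, Acly, Mpc1, Mpc2 and Pcx. Slc25a1, Ldha, Pkm, the mitochondrial factors not called and the named markers not called were added after their values were seen. A gene of the lists first drawn up is not reported here.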

Additional observations from a re-analysis of the deposited data

How the results depend on the processing

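The 8 other scalings, filters and tools and the 6 fits that left out 1 library gave 448 values for the 32 genes. Of these, 416 kept direction and side of the threshold, 16 fell short of it, 4 passed it and 12 changed sign; 25 genes never changed sign. The genes called over all tested genes (547) were 1110 with DESeq2's Wald test and 77 to 501 with 1 library left out (77 without AdLacZ replicate 3, 152 without AdLmo3 replicate 2); the members called (4) were 6 with DESeq2, 3 with library totals alone and 1 to 4 with 1 library left out; the companion genes called (6) were 11 with DESeq2 and 1 to 6 with 1 library left out. Slc25a10 was called in each of these fits. With 1 library left out, its group of 2 is assumed to vary like the other. With library totals alone the median log2 fold change of the members was 0.028, and Suclg2 (-0.057), Mdh2 (-0.036), Pdhb (-0.047) and Pdhx (-0.060) changed sign. With 1 library left out, the ranges that crossed 0 were -0.027 to 0.012 for Idh3g, -0.027 to 0.023 for Dld, -0.021 to 0.052 for Suclg2, -0.00078 to 0.063 for Mdh2, -0.0013 to 0.036 for Pdhx, -0.056 to 0.58 for Pdk1, -0.14 to 0.0018 for Pdk4 and -0.16 to 0.46 for the Pdk2 to Pdk1 ratio. The cause of these changes was not tested.

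The labels name no shared day or batch, so the replicate numbers were not taken to pair the samples. Same-numbered libraries deviated together with correlations of 0.0345, 0.176 and 0.176, all positive but low, which do not settle whether they were paired. Under the replicate block, 498 genes and 3 members were called (348 genes higher, 2.73%); Fh1 had an adjusted p of 0.0572, and 6 companion genes were called, without Mpc2 (0.0572) and Nrf1 (0.0786). The block left the pair ratios and the Pdk2 share as they were, since it averages the same differences.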

Other observations

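Genes of mitochondrial transcription and mass, which would be read beside the TCA cycle genes, showed no common direction between AdLacZ and AdLmo3 cells. Of 11 tested, 5 had positive and 6 negative log2 fold changes, from -0.31 to 0.94 with a median of -0.00. Called higher were 0 and lower 1, beside 2.71% and 1.57% of all tested genes. An unadjusted p under 0.05 (edgeR's quasi-likelihood test) was reached by 4, 2 higher and 2 lower, against 20.6% of all tested genes. In 2 every AdLmo3 library was above every AdLacZ library and in 2 below, beside 13.3% and 13.2% of all tested genes. Nrf1, the nuclear respiratory factor that drives many genes of mitochondrial proteins, stood at 28.5, 30.9 and 29.7 CPM in AdLacZ and at 24.0, 23.1 and 24.9 CPM in AdLmo3 replicates 1 to 3. All AdLmo3 libraries were below all controls, and Nrf1 fell by 0.31 on the log2 scale (SE 0.07, adjusted p = 0.0495 in edgeR's quasi-likelihood test). The adjusted p was 0.0856 to 0.175 with any 1 library left out, the highest without AdLmo3 replicate 2, and the call was lost with DESeq2's size factors (0.0506), with no filter on low counts (0.0575), with limma voom (0.05002) and under the replicate block (0.0786) too. Ppargc1b, a coactivator of the estrogen-related receptors, had 11.1, 17.9 and 12.5 CPM in AdLacZ and 34.8, 24.3 and 20.7 CPM in AdLmo3 replicates 1 to 3, without overlap, and a log2 fold change of 0.94 (SE 0.23) that missed the threshold (adjusted p = 0.061). Esrra, such a receptor, had 0.29 (SE 0.09, adjusted p = 0.129), and Gabpa, a further gene of the list, -0.16 (SE 0.06, adjusted p = 0.189). The groups of Esrra and of Gabpa did not overlap. Tfam, which packages and transcribes mitochondrial DNA, had -0.03, and Vdac1, the main channel of the outer membrane, 0.04.

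Of the 7 genes of succinate dehydrogenase assembly and lipoylation, which equips the PDH and oxoglutarate dehydrogenase complexes with their lipoyl arm, 0 passed. An unadjusted p under 0.05 in edgeR's quasi-likelihood test was reached by 1, beside 20.6% of all tested genes in either direction. That gene was Lias (lipoic acid synthetase), with a log2 fold change of -0.20 and an adjusted p of 0.125. The other cycle and complex genes described (Pdk4, Ogdhl and Dhtkd1) had log2 fold changes between -0.09 and 0.07 and overlapped between the groups in each case.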
